A study of Mus musculus with 15 samples.

Results

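CD4 T cells from the gut wall of mice at day 10 of a high-fat diet were compared with those of mice on control chow. The comparison uses the 5 arrays titled as high-fat diet day 10 and the 5 titled as control, which are 10 of the 15 arrays of the study. In the main fit the remaining 5 arrays, from day 30 of the diet, entered only the shared estimate of the spread. They also entered alternative fits, and their levels are described at the end for some receptor probes. All mice were male. Leukocytes were taken from the lamina propria of their small intestine, and CD4 T cells were isolated from them by flow sorting. The labels used here give no strain, genotype or age, no composition of the diet and no day for the controls, so time on the diet cannot be told apart from age or from time in the experiment. They name the sorted cells by CD4 alone. Whether each sample is 1 mouse, a pool or a repeat is not stated, so p-values measure the spread between these samples only, which may be technical.

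The lamina propria is the connective tissue beneath the gut epithelium, and its CD4 T cells are largely antigen-experienced cells that live close to the microbiota. Their main helper programs are Th17 (interleukin 17 and interleukin 22), Th1 (interferon gamma, T-bet), Th2 (interleukins 4, 5 and 13, GATA3) and regulatory T cells (FOXP3, interleukin 10). Interleukin 17 and interleukin 22 act on the epithelium to maintain the barrier. Per the series text the diet was meant to alter the microbiota, and its title speaks of prediabetic and diabetic mice.

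Signals are given as log2 of the processed spot intensity minus the 75th percentile of that array, so 0 is the level of a probe at that percentile. Differences are day 10 minus control, and levels of different genes are not comparable because each has its own probe. Of 34817 gene names, 23945 were tested because their brightest probe was well above background, by the scanner software's own call, on at least 5 of the 10 arrays. Control arrays detected 63.8% ± 12 (SD, n = 5) of their spots and day 10 arrays 58.5% ± 2.91 (SD, n = 5), a difference of -5.35 percentage points (exact permutation test, two-sided, p = 0.421). Control replicate 1 stood apart at 82%, and without it the difference was -0.793 points. Arrays correlated with one another at 0.618 to 0.823, with a median of 0.757 within groups and 0.755 between them. All 5 control arrays and day 10 replicates 1 to 3 lay on slide 1, and day 10 replicates 4 and 5 on slide 2. The comparison was therefore repeated within slide 1, where 5 control arrays face 3 day 10 arrays. Within-slide values are given for the main results, and for each gene chosen by rule whose unadjusted call was lost there.

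No gene differed between day 10 and control past an adjusted p of 0.05. The smallest adjusted p among the 23945 genes was 0.658 (limma, Benjamini-Hochberg), so no gene is described as having risen or fallen. Fitting only the 10 compared arrays gave a smallest adjusted p of 0.0808 (limma), and 0 genes under 0.05. At an unadjusted p under 0.05, 618 genes (2.58% of those tested) separated the groups. Of these, 217 were higher at day 10 (0.906%) and 401 lower (1.67%). The median difference over all genes was 0.01 with 50.6% of genes higher, a balance that setting each array against its own percentile largely fixes. Among the 13803 genes well above background on all 10 arrays, 190 passed the unadjusted threshold (1.38%), with 90 higher and 100 lower. Of the 401 lower genes, 131 were well above background on at most 1 day 10 array. For the 217 higher genes the matching count, on at most 1 control array, was 28. Groups that did not overlap at all, with every day 10 array on one side of every control array, were seen for 97 of 23935 genes with a value on every array (0.405%), 28 higher (0.117%) and 69 lower (0.288%).

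Within slide 1 the picture was the same in kind. No gene passed an adjusted p of 0.05 (smallest 0.652, limma), and 651 genes had an unadjusted p under 0.05 (2.72%), 297 of them higher and 354 lower. Ccl3 (-3.22), Cdc6 (-4.48), Crtam (-3.5), Pecam1 (-3.76), Zfp36 (-2.88) and Jchain (2.43), also chosen by rule, passed an unadjusted 0.05 only within slide 1. The medians of 11 of 33 gene lists changed sign there, and not all of these are given. For a gene well above background on all 10 arrays the median standard error of the difference was 0.63 and the median half-width of its 95% interval was 1.33, so differences below about that size could not be resolved. The spread was larger in control, with a median SD per gene of 1.26 against 1.05 at day 10, and 58.7% of genes varied more among control arrays. Genes are named below by the size of their unadjusted p, which makes their differences large by choice. Since no adjusted p is below 0.658, single genes are given by their difference ± SE (limma, 5 arrays a group), and "past the unadjusted threshold" means an unadjusted two-sided limma p under 0.05. Where a probe was well above background on few arrays of a group, its difference is partly one against background.

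Among well-detected genes, those higher at day 10 included a membrane scaffold, a glycogen enzyme, a cell cycle regulator and a sterol enzyme. The 12 named genes lay 1.24 to 2.32 above control, and within slide 1 they lay 0.90 to 2.49 above it, with 7 of the 12 under a p of 0.05 there. Slc9a3r1, the scaffold that ties membrane proteins to the actin linker ezrin, had the smallest p (mm9 probe position chr11:115042133-115042192). Its control arrays read -0.07, 0.94, -0.67, -0.08 and 2.04, and its day 10 arrays 1.57, 3.03, 1.41, 3.27 and 3.54. The difference was 2.13 ± 0.57 (SE), with a 95% interval from 0.93 to 3.33. Control replicate 5 reached into the day 10 range, while the other 4 control arrays lay below every day 10 array. Within slide 1 the difference was 1.57, not past the unadjusted threshold.

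Pygl encodes glycogen phosphorylase, which releases glucose units from glycogen. It read -1.0, -1.81, 1.11, -0.23 and 0.01 in control and 2.62, 1.55, 2.13, 1.75 and 0.85 at day 10, a difference of 2.16 ± 0.64 (SE). Within slide 1 it was 2.49. Only control replicate 3 lay inside the day 10 range. Ubxn1, a cofactor of the p97 ATPase that binds ubiquitin, differed by 1.60 ± 0.46 and by 1.70 within slide 1. Csnk2a2, a catalytic subunit of casein kinase 2, differed by 1.44 ± 0.45. Men1, which encodes the chromatin protein menin, differed by 2.24 ± 0.70, and its second probe by 1.15.

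Ccnd2 encodes cyclin D2, which carries lymphocytes into the cell cycle. Its control arrays read 0.05, 2.00, -0.43, 0.99 and 2.05 and its day 10 arrays 3.26, 2.43, 2.48, 3.35 and 1.66, so that day 10 replicate 5 alone fell within the control range. The difference was 1.70 ± 0.57 and 1.79 within slide 1. Mvk, mevalonate kinase of the sterol pathway, was bright in every array. It read 2.48, 2.61, 3.41, 2.70 and 2.60 in control against 3.58, 3.03, 4.38, 4.53 and 4.48 at day 10. The difference was 1.24 ± 0.42, a second probe gave 0.69, and the within-slide value of 0.90 was not past the unadjusted threshold. The remaining members of the set were Cd200r2 (1.63), Pin1rt1 (1.88), Commd9 (2.32), Srrm3 (1.77) and the tRNA-modifying enzyme subunit Qtrt1 (1.78). Of these, Cd200r2, Pin1rt1 and Qtrt1 also missed the threshold within slide 1, at 1.48, 1.76 and 1.43.

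The 12 well-detected genes lower at day 10 differed by -3.25 to -1.26, and by -2.93 to -1.07 within slide 1. Of these 12 genes, 7 had a p under 0.05 within slide 1. In 4 of the 12 the groups did not overlap at all, against 0.288% of all genes in that direction, which choice by small p favours. Hes7, a transcriptional repressor of the Notch-linked Hes family, had the tightest groups: 0.26, 0.14, -0.19, -0.32 and -0.06 in control against -1.0, -0.98, -1.33, -1.33 and -1.85 at day 10. The difference was -1.26 ± 0.46, and within slide 1 it was -1.07, no longer past the unadjusted threshold. Gpr137b-ps, an annotated pseudogene of a membrane protein gene, read 0.57, 0.91, 1.45, 1.30 and 1.76 against -0.17, -0.99, -0.76, -0.27 and 0.27. Its difference was -1.58 ± 0.47, a second probe gave -1.09, and signal from the parent gene cannot be told apart from it. Lrch3 (-2.45) and Noxa1 (-1.68), an activator of an NADPH oxidase, were the other genes without overlap.

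Ppara, the nuclear receptor that senses fatty acids and turns on their oxidation, was among the lower genes (mm9 probe position chr15:85632534-85632593). It read -0.04, -2.35, 0.04, -0.16 and 0.38 in control and -3.29, -2.03, -2.37, -2.41 and -3.33 at day 10. Control replicate 2 alone lay among the day 10 arrays. The difference was -2.26 ± 0.62 and -2.14 within slide 1, but a second probe of the gene gave 0.33, so the probes disagreed. Lyrm2 had the smallest p of the lower set, at -2.75 ± 0.75, with control replicate 4 among the day 10 values.

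Dusp14, a phosphatase that dampens T cell receptor signalling, differed by -3.25 ± 1.05. Its day 10 arrays were split: replicates 1 and 2 read 0.59 and 1.44, inside the control range of 0.23 to 3.48, and replicates 3, 4 and 5 read -2.63, -3.14 and -3.81. Within slide 1 the difference was -1.94, not past the unadjusted threshold. Rbm38, an RNA-binding protein gene induced by p53, was at -2.17 and Rrad, a Ras-related GTPase gene, at -1.62. Prxl2a was at -2.37 and Zfp276 at -2.49. Defa36, one of the alpha-defensins that Paneth cells secrete, was at -2.29 ± 0.83. Within slide 1 Defa36 (-1.71), Rrad (-1.47) and Noxa1 (-1.33) were not past the threshold. Defensin genes are near-identical copies, and its probes, the second of which gave -1.57, could detect several of them.

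**Figure D1:**
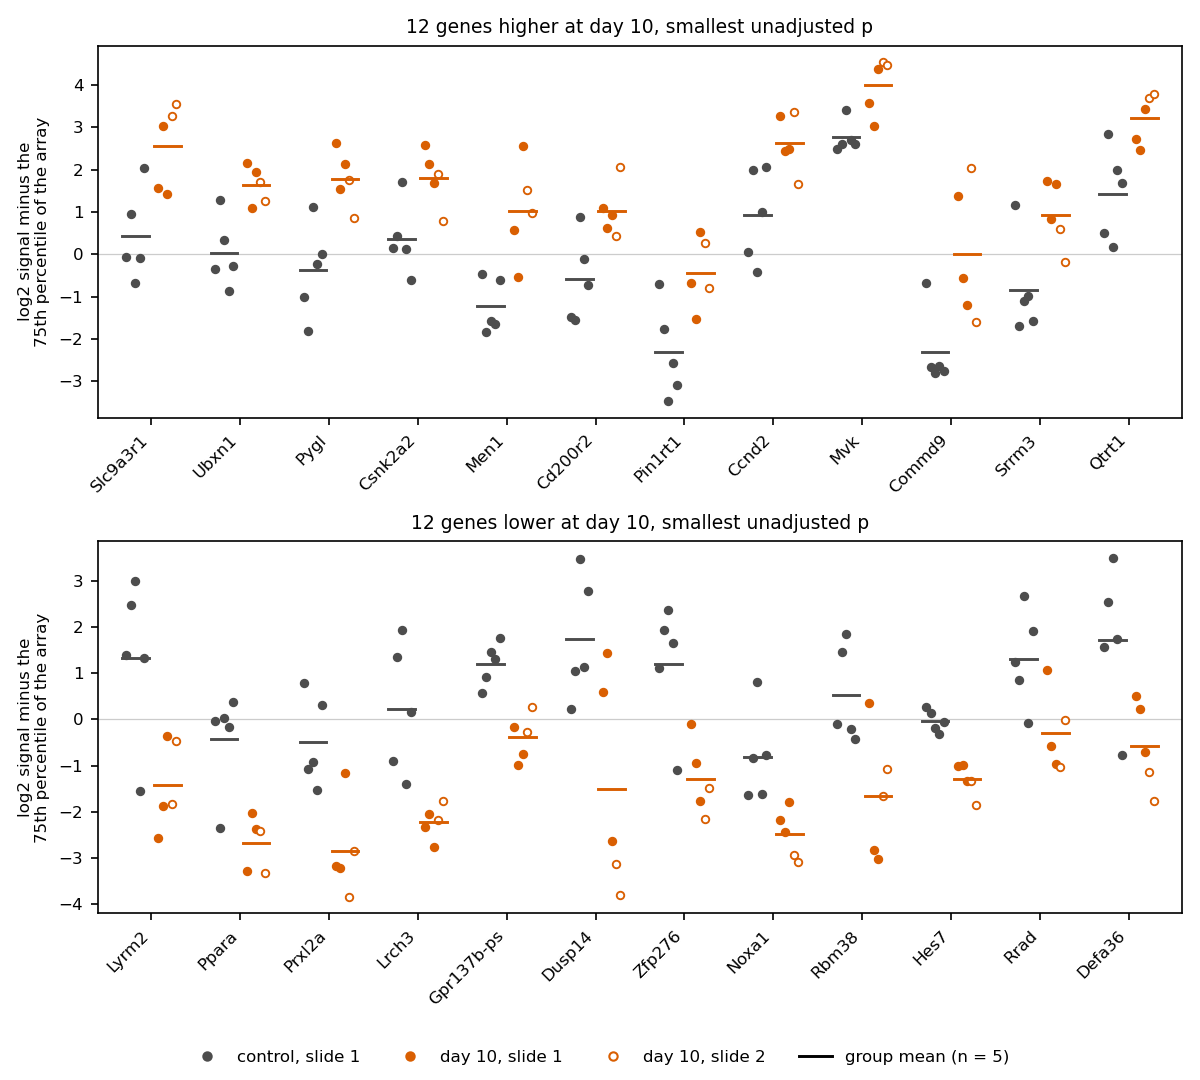
Signal of the 24 well-detected genes with the smallest unadjusted p, 12 higher (top) and 12 lower (bottom) at day 10, as log2 signal minus the 75th percentile of the array. Each point is 1 array, open points are the 2 day 10 arrays on slide 2, and horizontal lines are means of 5 arrays. Groups do not overlap for 4 lower genes and no higher gene, against 0.288% and 0.117% of all genes. Choice by small p favours such genes.

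Other genes were detected on all arrays of one group and on almost none of the other. In the higher direction the rule gave only Cxcr1, a chemokine receptor known from neutrophils. It was well above background on 1 control array (replicate 1, at -0.96, against -6.61 to -5.58 on the others) and on all 5 day 10 arrays, which read -2.72, -0.04, -0.59, 1.97 and -2.51. The difference was 4.29 ± 1.11 and 3.95 within slide 1. Of 10 granulocyte and mast cell markers 3 were tested, with a mean level of -5.20 to -2.36 in control and -4.35 to -1.87 at day 10. S100a8, S100a9, Prg2 and Cpa3 did not pass the filter, and Cpa3 was detected on no array. Their part in the Cxcr1 values was not tested.

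In the lower direction 6 genes were named, all without overlap between groups and all past the unadjusted threshold within slide 1. Both largely follow from the rule, which took genes of small p detected throughout control and on at most 1 day 10 array. The 6 genes were Gemin8, a component of the complex that assembles splicing ribonucleoproteins, Enc1, Rufy3, Ndufaf2, Ttc33 and Crybg3. Gemin8 read -2.42, -0.86, -0.68, -2.48 and -2.83 in control and -6.18, -4.38, -4.72, -6.51 and -6.52 at day 10. For the 5 genes not well above background on any day 10 array only a bound can be given. It sets the control mean against the higher, on each day 10 array, of the probe's value and the dimmest detected probe. With the main processing the bound put control 4.76-fold higher for Gemin8, 9.22-fold for Enc1, 5.45-fold for Rufy3, 8.66-fold for Ndufaf2 and 11.3-fold for Crybg3. Bounds of this kind leave out the spread between arrays and hold for that processing only. With normexp background correction the log2 differences were smaller: Gemin8 -1.16, Enc1 -1.63, Rufy3 -1.30, Ndufaf2 -1.89 and Crybg3 -1.94.

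Il17f and Il22, cytokine genes of the Th17 program, read lower at day 10 on most arrays, while most regulators named for that program lay close to control. Of the 14 tested Th17 genes 7 were higher and 7 lower, with a median difference of -0.01 against 0.01 over all genes. That median was -0.30 within slide 1 and -0.58 without control replicate 1. Il17f read 0.61, -3.08, 0.80, 2.27 and 1.98 in control. At day 10 it read 2.39, -6.07, -5.69, -5.93 and -3.52. The probe was detected on all 5 control arrays and on 2 day 10 arrays. Day 10 replicate 1 held the highest value of all 10 arrays, and the other 4 day 10 arrays lay below every control array. The difference was -4.28 ± 1.69, with a 95% interval from -7.88 to -0.69, and -3.64 within slide 1, where it missed the unadjusted threshold.

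Il22, the cytokine that induces antimicrobial proteins in epithelium, read -1.26, -0.91, 4.77, 1.81 and 0.74 in control. Its day 10 arrays lay close together at -1.07, -0.85, -1.93, -2.57 and -2.08. Control replicates 1 and 2 matched the day 10 level and the other 3 were above it. The difference was -2.73 ± 1.22 and -2.31 within slide 1, where it missed the unadjusted threshold too. Il17a was detected on 4 control and 2 day 10 arrays, with a difference of -1.35 ± 1.04.

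Among regulators and receptors of the program, Rora (0.47), Stat3 (0.06), Maf (-0.09), Irf4 (0.23), Ahr (0.51) and Il23r (0.09) each lay within 1 SE of 0. Batf, a factor needed early in Th17 differentiation, was at -1.16 ± 0.72. Il21 and Ccl20 were too dim to test.

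Th1 genes gave 7 higher and 8 lower of 15. The median was -0.19, but 0.23 within slide 1, where 9 were higher. Tbx21, which encodes T-bet, read 2.24 to 2.94 in control and 1.72 to 3.37 at day 10, a difference of 0.20 ± 0.34. Ifng was at -1.14 ± 1.11, with overlapping groups. Eomes, the second T-box factor, was detected on 4 control and 2 day 10 arrays and differed by -2.85 ± 1.37.

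Of 9 tested Th2 genes 2 were higher and 7 lower (median -0.51, or -0.08 within slide 1). The p under 0.05 belonged to Ccr8, a chemokine receptor of Th2 and regulatory cells. It read -3.67, 1.55, 0.18, 1.64 and 1.62 in control against -0.71, -3.30, -3.69, -6.05 and -2.93 at day 10. Its difference was -3.6 ± 1.36, with control replicate 1 at the level of the day 10 arrays, and -2.83 within slide 1, which missed the unadjusted threshold. The probe was detected on 5 control and 2 day 10 arrays. Gata3 was at -0.51 ± 0.55, and Il4, Il5 and Il13 were too dim to test.

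Regulatory T cell genes gave 6 higher and 12 lower of 18, with a median of -0.25 and none under a p of 0.05. Foxp3 read 0.05, -1.11, 1.01, 1.51 and 2.54 in control and 1.73, 0.66, -0.24, -1.68 and 1.92 at day 10, so the groups overlapped fully. Its difference was -0.32 ± 0.78. Il10 was at -0.38 ± 0.61, with day 10 arrays between 1.86 and 2.68 and control replicate 1 lowest of all at 0.26. Ctla4 was at 0.01, Tnfrsf18 at 0.05 and Nt5e at 0.10. Ikzf2, which encodes Helios, was at 1.20 ± 0.90.

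**Figure D2:**
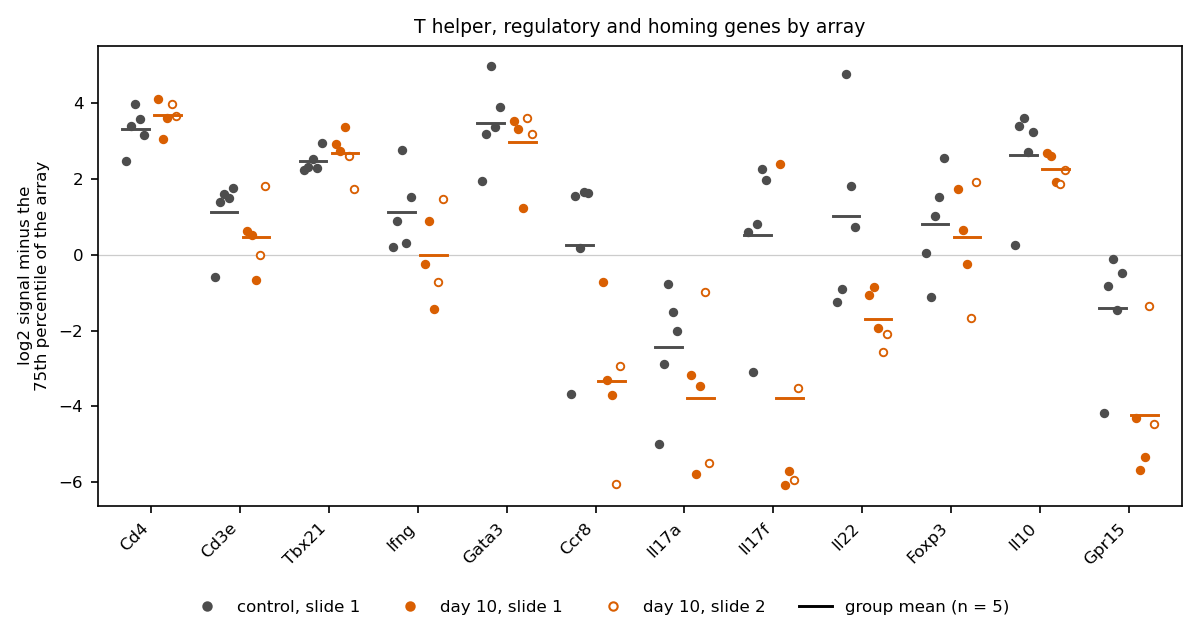
Signal of T cell identity, helper, regulatory and homing genes on each array, as log2 signal minus the 75th percentile of the array. Each point is 1 array, open points are the day 10 arrays on slide 2, and lines are means of 5 arrays; Il17f has 1 day 10 array with the controls, Ccr8 1 control array with day 10 and Gpr15 1 of each, while Tbx21, Foxp3 and Cd4 overlap.

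The sorted cells carried T cell transcripts in both groups. All 20 genes of the T cell receptor and CD4 identity list were well above background on all 10 arrays, and none had a p under 0.05 (14 higher, 6 lower, median 0.19). Cd4 read 2.47, 3.39, 3.96, 3.57 and 3.16 in control and 4.11, 3.05, 3.61, 3.96 and 3.65 at day 10, a difference of 0.37 ± 0.39. Cd3e was at -0.68 ± 0.67, with control replicate 1 far below the other controls at -0.59. Without control replicate 1 the median of the list was -0.27.

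Among gut homing and residency receptors the gene under a p of 0.05 was Gpr15, the receptor that draws T cells to the large intestine. Of 16 tested genes 10 were higher and 6 lower, with a median of 0.24 (-0.06 within slide 1). Gpr15 read -4.16, -0.83, -0.12, -1.47 and -0.47 in control and -4.30, -5.68, -5.33, -1.36 and -4.47 at day 10. Control replicate 1 lay with the day 10 arrays and day 10 replicate 4 with the controls, and the probe was detected on 4 control arrays and 1 day 10 array. The difference was -2.82 ± 0.97 and -3.69 within slide 1. Ccr9, which guides T cells to the small intestine, was at 0.28 ± 0.67, and Itgb7 at 0.25, Itgae at -0.62 and Cxcr6 at 0.24. Larger differences with wide errors were those of Itga1 (1.92 ± 1.37), Cxcr4 (-1.38 ± 1.25) and S1pr1, the receptor that lets T cells leave tissue (1.03 ± 0.70).

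Adhesion genes held a pair with large opposite differences. Icam2, a ligand of the integrin LFA-1, read -3.56, -3.94, -4.22, -3.21 and -0.42 in control and 1.70, 0.23, -0.37, 0.84 and 0.90 at day 10, with no overlap. Its difference was 3.73 ± 0.82 and 3.59 within slide 1. Actn1, an actin crosslinker at integrin contacts, read -2.11, -0.55, 3.30, 0.41 and 2.41 against -3.22, -1.26, -5.55, -6.24 and -6.28. Its difference was -5.20 ± 1.5, with detection on 5 control and 2 day 10 arrays, and day 10 replicates 1 and 2 lay nearest to control. Within slide 1 it was -4.04. Over the 24 tested adhesion genes 13 were higher and 11 lower, with a median of 0.13.

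Genes of fatty acid oxidation were divided between the directions. Of 27 tested oxidation genes 13 were higher and 14 lower (median -0.03), and 3 of them (Cpt2, Ppara and Eci1) were lower at a p under 0.05, against 1.67% of all genes. The median was 0.04 within slide 1. Cpt2, the inner-membrane step of the carnitine shuttle, read -2.70, 0.74, -4.31, 0.54 and -0.71 in control against -5.83, -5.73, -5.27, -6.16 and -3.34 at day 10. The probe was detected on 4 control arrays and 1 day 10 array. The difference was -3.98 ± 0.95 and -4.32 within slide 1. Control replicate 3 was the control array within the day 10 range.

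Cpt1a, the outer-membrane step of the same shuttle, was at 1.60 ± 0.88, opposite in sign to Cpt2. Eci1, which prepares unsaturated fatty acids for oxidation, was at -3.20 ± 1.34, detected on 5 control and 2 day 10 arrays. Hadha and Hadhb, the subunits of the trifunctional enzyme, were each at 0.84. Plin2, the lipid droplet coat protein gene, was at 1.72 ± 1.42, and Ppard at 0.25. Pparg, Ppargc1a and Pdk4 were too dim to test.

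Peroxisomes also oxidise fatty acids, and 2 of 18 tested peroxisome genes were higher at a p under 0.05, against 0.906% of all genes. Pex16, which directs membrane proteins into new peroxisomes, read -2.01, -6.30, -5.94, -2.63 and -5.85 in control and 0.61, -1.58, -0.88, 1.39 and 1.30 at day 10, without overlap. The probe was well above background on 2 control and 5 day 10 arrays. Its difference was 4.71 ± 1.00 and 3.93 within slide 1. Pex5, the import receptor for peroxisomal enzymes, differed by 3.43 ± 1.55, detected on 2 control and 4 day 10 arrays, though day 10 replicate 5 read -6.51. Without that array the other 4 day 10 values were -0.74 to 0.98. Over the whole list 10 were higher and 8 lower; the median was 0.21, or -0.04 on slide 1 alone.

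Cholesterol and fatty acid synthesis genes gave 13 higher and 14 lower of 27, with Mvk the single gene under a p of 0.05. Among other genes of the pathway, Mvd was at -1.95 ± 1.19, Hmgcs1 at -1.24 and Fdps at -0.44. Glycolysis genes gave 12 higher and 9 lower of 21 and none under a p of 0.05. Slc2a1, the glucose transporter GLUT1, was at 2.55 ± 1.36, with day 10 replicate 2 at -4.08 and the other day 10 arrays between 0.02 and 0.90.

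In the insulin and mTOR list, Rptor and Ddit4 differed in opposite directions. Rptor encodes raptor, the scaffold of mTOR complex 1. It read -6.29, -4.19, -3.78, -2.24 and -2.23 in control and -0.35, -1.31, -0.22, -1.49 and -0.44 at day 10, with no overlap. Its difference was 2.98 ± 0.86 and 3.12 within slide 1. Ddit4, an inhibitor of the same complex that stress induces, was at -3.74 ± 1.51 and -4.77 within slide 1, with day 10 replicate 4 at -1.01 among the controls. The Ddit4 probe was detected on 4 control arrays and 1 day 10 array, so its difference is mostly one against background. Mtor (0.44), Rictor (0.76) and Rps6kb1 (1.01) were higher but within about 1 SE of 0. Mlst8, another subunit, was at -3.51 ± 1.76, also detected on 4 control arrays and 1 day 10 array. Over 23 tested genes 11 were higher and 12 lower.

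The gene with the smallest p of all those named was Emc9, a subunit of the endoplasmic reticulum membrane protein complex that inserts transmembrane segments. It read -1.85, 0.09, 2.61, 0.26 and -0.84 in control and -2.93, -6.09, -4.84, -6.51 and -3.78 at day 10, with no overlap. The difference was -4.88 ± 0.89 (adjusted p = 0.658, limma) and -4.67 within slide 1. Emc2, another subunit of the complex, also showed no overlap, reading -1.10, 1.87, -1.44, 0.11 and -0.86 against -6.01, -5.91, -3.27, -2.77 and -2.16. Emc2 differed by -3.74 ± 0.94 and by -4.78 within slide 1. Both probes were detected on 5 control and 2 day 10 arrays. Of 9 tested subunits of the complex, these 2 were lower at a p under 0.05, against 1.67% of all genes. The other 7 lay between -2.08 and 1.73. The subunits do not form a list of their own and are counted because Emc9 and Emc2 were chosen by small p. Across the 32 genes of the unfolded protein and stress response list 18 were higher and 14 lower, with Hspa5 at 0.31, Xbp1 at 0.17 and Atf4 at 0.28.

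Hspa1a, the inducible HSP70 gene, was the one heat shock gene under a p of 0.05. It read -1.46, -0.07, -0.51, -1.01 and 0.30 in control and -2.33, -6.05, -2.88, -3.83 and -5.43 at day 10, without overlap. The difference was -3.55 ± 0.78 and -3.20 within slide 1, with detection on 5 control and 3 day 10 arrays. Its near-identical neighbour Hspa1b was not matched by name to a probe, and the Hspa1a probe could read both genes. Of 19 tested chaperone genes 8 were higher and 11 lower (median -0.30, or -0.56 without control replicate 1). Hsph1 was at -0.79, Dnajb1 at -1.24, Hsp90aa1 at -0.36 and the constitutive Hspa8 at -0.05.

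Immediate early genes, which T cells switch on soon after stimulation, gave 7 higher and 16 lower of 23, with a median of -0.21. Myc was the gene under a p of 0.05, at -2.81 ± 1.29 and -2.18 within slide 1, which missed the unadjusted threshold. Its control arrays ran from -3.46 to 2.94 and its day 10 arrays from -5.41 to 0.61, with detection on 5 control and 3 day 10 arrays. Fos (0.20), Fosb (-0.21), Jun (-0.53), Egr1 (-0.16) and Nr4a1 (-0.08) lay near control. Egr2 was at -2.25 ± 1.28, detected on 5 control and 2 day 10 arrays.

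Cell cycle genes gave 15 higher and 17 lower of 32, with Ccnd2 alone under a p of 0.05. Mki67, the marker of cycling cells, was at -0.37 ± 0.65, Top2a at -0.57 and Ccnd3 at 1.33. Among 20 survival and death genes, Bok, a BAX-like effector, was at 2.28 ± 0.86, with control replicate 1 at -0.37 inside the day 10 range. Within slide 1 Bok was at 1.69 and missed the threshold. Bcl2l13 was at -1.57 ± 0.72, Bcl2 at -1.14 and Mcl1 at 0.14.

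Respiratory chain genes gave 31 higher and 22 lower of 53, with a median of 0.14. Ndufaf2 and Taco1 held the 2 values under a p of 0.05, against 1.67% of all genes lower. Ndufaf2, an assembly factor of complex I, read -0.40, -2.93, 2.32, -3.71 and -0.24 in control and -6.00, -5.90, -5.47, -4.57 and -6.42 at day 10. Taco1, which activates translation of a complex IV subunit, read -2.10, -0.25, -0.81, -1.24 and -0.72 against -4.60, -5.94, -5.69, -6.49 and -6.48. Neither gene overlapped between groups or was well above background on any day 10 array. With the main processing the bound for Taco1 was 8.47-fold, and with normexp background correction its log2 difference was -1.68. Both genes had a p under 0.05 within slide 1 too.

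Cytosolic ribosomal protein genes leaned one way by a small amount: 64 of 69 were higher, with a median of 0.27 and none under a p of 0.05. Their mean level per array ran from 3.92 to 5.89 in control and 4.81 to 5.53 at day 10. Without control replicate 1, the array with the most detected spots, the median was 0.00, and it was -0.06 with the detected share as a covariate. Within slide 1 it was 0.18.

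Interferon response genes gave 15 higher and 14 lower of 29, with Rtp4 at -3.00 ± 1.16 and Irf7, the amplifier of the response, at 3.41 ± 1.77. Irf7 was well above background on 2 control and 5 day 10 arrays, and Rtp4 on 5 control and 3 day 10 arrays. Isg15 was at 0.51 and Ifit1 at -0.15. Of 21 NF-kB genes 11 were higher and 10 lower, and none had a p under 0.05; Nfkbia was at 0.29 and Il1b at -1.5 ± 0.79.

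Microbial pattern receptors and adaptors gave 6 higher and 13 lower of 19 (median -0.41, and 0.01 within slide 1). Tlr8, an endosomal RNA sensor, was at -2.24 ± 0.76, and at -1.76 within slide 1, where it missed the unadjusted threshold. It was detected on 5 control and 2 day 10 arrays. Tlr9 was at 0.00, Tlr2 at -0.71 and Myd88 at 0.31, while Tlr4, Tlr5 and Nod2 were too dim to test. TGF-beta genes gave 6 higher and 6 lower of 12, and clock genes 8 higher and 8 lower of 16, with no p under 0.05 in either list.

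Markers of other cells were counted in the same way. In bulk RNA, fewer cells of a type and less RNA per cell cannot be told apart. Of the macrophage and dendritic cell markers 4 of 13 were higher and 9 lower (median -0.37, and -0.02 within slide 1). Their mean level ran from -0.54 to 0.18 in control and -1.09 to 0.10 at day 10. Of the 13, 8 were well above background on all 10 arrays, among them Itgam (8.72 in control, 8.70 at day 10). C1qc was well above background on no array. H2-Aa, the alpha chain of an MHC class II molecule, read -3.56, 0.38, 4.18, 1.36 and 1.74 in control and -0.36, -5.91, -5.57, -5.14 and -4.75 at day 10. All 5 control arrays but just 1 day 10 array detected it. The difference was -5.17 ± 1.33 and -4.77 within slide 1, so it is mostly one against background. Control replicate 1 and day 10 replicate 1 each lay nearer the other group.

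The beta chain of the same molecule, H2-Ab1, was at 0.90 ± 1.17, and the invariant chain Cd74 at 1.02 ± 0.65, both detected on all 10 arrays. H2-Ab1 is given here because of the value of its partner and was chosen after its value was seen. Whether the class II genes differ from each other was not tested.

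Cytotoxic and NK markers gave 9 higher and 4 lower of 13, with a median of 0.44, and 0.04 without control replicate 1. Ctsw, a protease of cytotoxic lymphocytes, read 0.38, 3.49, 5.33, 3.65 and 3.6 in control and 5.26, 4.38, 3.91, 5.05 and 5.06 at day 10. Its difference was 1.44 ± 0.64, but 0.72 without control replicate 1 and 1.23 within slide 1, where it missed the threshold. Crtam, the other gene chosen from this list, was at -2.52 ± 1.28, and at -3.5 within slide 1. Gzma (0.01), Gzmb (-0.08) and Cd8a (0.61) lay near control, while the whole list ran from -2.52 to 1.89.

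B cell markers gave 4 higher and 4 lower of 8. Of these, 5 were well above background on all 10 arrays, among them Cd22 (5.21 in control, 5.10 at day 10), and Ms4a1 on none. The antibody joining chain gene Jchain was at 2.16 ± 1.20 and Fcer2a at -1.08 ± 0.53. Innate lymphoid markers gave 5 and 5 of 10. Red cell markers were represented by Hba-a1 (1.90 ± 1.86) and Slc4a1 (0.91 ± 0.80).

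Among epithelial transcripts, absorptive markers gave 5 higher and 7 lower of 12 (median -0.13, or 0.08 within slide 1), with Fabp1 at -2.70 ± 1.62. Of the 12, 4 were well above background on all 10 arrays, and Alpi on none. Secretory and antimicrobial markers gave 1 higher and 5 lower of 6 with a median of -0.09, Lyz1 at -0.09 and Muc2, Reg3b and Reg3g too dim to test. Their mean level ran from -2.20 to -0.46 in control and -1.90 to -1.01 at day 10. Stromal markers gave 3 higher and 5 lower of 8. Of these, 5 were well above background on all 10 arrays, and Cdh5 on none. Lum was at 2.45 ± 0.90 (2.21 within slide 1, where it missed the threshold). Pecam1 was at -2.28 ± 1.6, and at -3.76 within slide 1. The part of other cells in the results above was not tested.

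**Figure D3:**
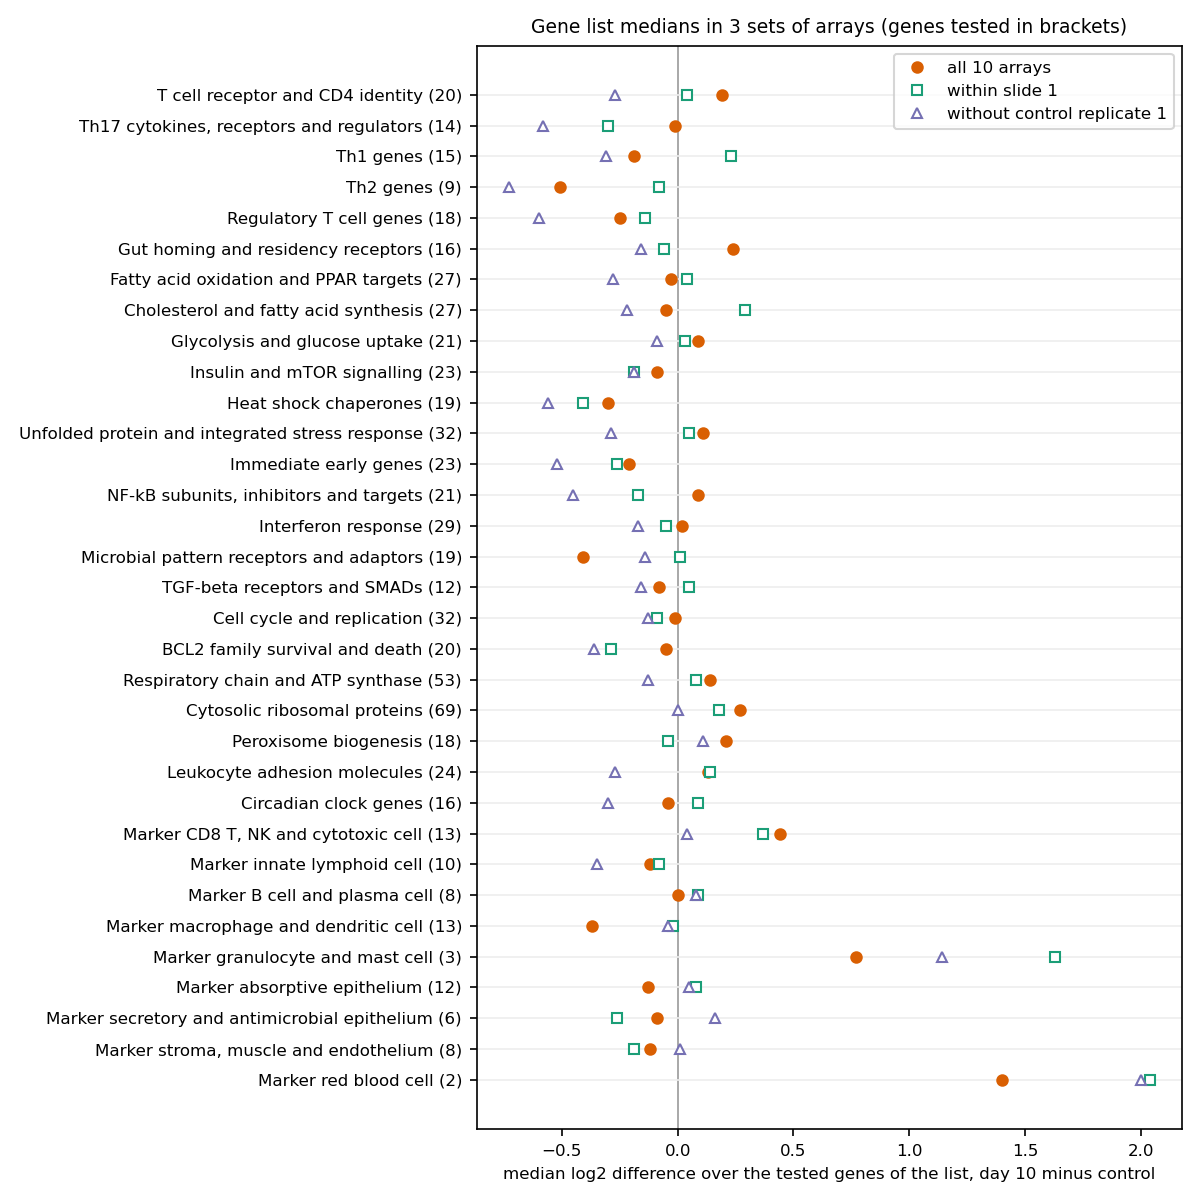
Median log2 difference, day 10 minus control, over the tested genes of 24 gene lists and 9 lists of markers of other cells. Filled circles use all 10 arrays, squares the 8 arrays of slide 1 and triangles the 9 arrays without control replicate 1; 30 of 33 medians over all 10 arrays lie within 0.5 of 0, and 25 of 33 are lower without control replicate 1.

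The variable segments of the T cell receptor alpha chain were looked at after values had been seen. Each T cell joins 1 variable segment to the constant part of the chain, so segment signals reflect which receptors are present, while the constant part reports the total. Of 51 tested alpha variable probes 25 were higher, 25 lower and 1 at 0.00, which was the median. Of these, 7 were lower at a p under 0.05 and 0 higher, set against 1.67% and 0.906% of all genes. Within slide 1, 6 of the 7 had a p under 0.05. The slide 1 arrays are among those that chose these probes, so that count is no separate support. The median was -0.12 within slide 1. The alpha constant region, Trac, read 0.90, 4.01, 5.14, 4.54 and 4.86 in control and 4.94, 4.07, 2.99, 4.48 and 4.49 at day 10, a difference of 0.31 ± 0.66. The Trac difference was 0.11 within slide 1 and turned to -0.44 without control replicate 1, the array at 0.90.

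The low probes belonged mainly to the TRAV13 and TRAV7 families, and several share most of their sequence. They are shown because probes that share most of their letters are not independent measurements. Each is a probe of 60 bases as given in the scanner files, 5′ to 3′, on the plus strand of chromosome 14 in build mm9. In the Tca and M20875 lines capitals mark bases identical to those of TRAV13D-1 when aligned without gaps, and in the TRAV13D-1 line those identical to either of these probes. In the TRAV13-2 line they mark 13 bases that also end the M20875 probe. This is short of the 20 aligned bases required for a match, and TRAV13-2 was grouped with no other probe.
TRAV13D-1 (chr14:53471413-53471472): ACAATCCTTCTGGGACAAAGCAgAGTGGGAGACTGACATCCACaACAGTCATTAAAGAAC
Tca mRNA (chr14:54377467-54377526): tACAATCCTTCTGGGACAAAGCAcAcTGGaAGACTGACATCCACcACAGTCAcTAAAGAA
M20875 clone (chr14:54165093-54165152): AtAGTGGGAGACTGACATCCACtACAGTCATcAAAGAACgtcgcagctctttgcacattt
TRAV13-2 (chr14:54255014-54255073): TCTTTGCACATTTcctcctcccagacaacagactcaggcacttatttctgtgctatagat

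The TRAV13D-1 and Tca probes matched at 54 of 59 aligned bases, and the TRAV13D-1 and M20875 probes at 36 of 39. A second group came from TRAV7, with capitals again marking identical aligned bases, 41 of 45.
TRAV7D-4 (chr14:54081279-54081338): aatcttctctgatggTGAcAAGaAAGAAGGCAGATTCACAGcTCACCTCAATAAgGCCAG
TRAV7D-2 (chr14:53304032-53304091): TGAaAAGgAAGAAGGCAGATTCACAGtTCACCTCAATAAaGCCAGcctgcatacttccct

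TRAV13-2 (listed as ENSMUST00000103658) had the largest difference among these probes. It read 0.26, 0.94, 4.22, 2.07 and 2.85 in control and 0.12, -3.43, -2.43, -3.39 and -2.62 at day 10. The groups did not overlap, although day 10 replicate 1 lay just below the lowest control. The difference was -4.42 ± 1.03 and -3.98 within slide 1. TRAV13D-1 (ENSMUST00000103588) read 0.33, 1.93, 3.47, 1.98 and 1.73 against -1.09, -0.40, -1.95, -3.48 and -2.76, again without overlap. Its difference was -3.82 ± 0.99 and -3.03 within slide 1.

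The M20875 probe differed by -4.40 ± 1.05, detected on 5 control and 2 day 10 arrays. The Tca probe (ENSMUST00000103668) differed by -2.16 ± 0.71, with a further probe of the same name at -4.61. A probe for another alpha chain clone, M20876, differed by -2.70 ± 0.62, with control arrays from -0.79 to 1.78 and day 10 arrays from -3.24 to -1.20. Not every family member was low: a probe named TRAV13-3 (TC1638635) was at 0.44 ± 0.61. TRAV7D-4 (ENSMUST00000181728) was at -2.80 ± 0.89 and TRAV7D-2 (ENSMUST00000103636) at -2.52 ± 0.83. Within slide 1 TRAV7D-4 was at -1.76 and missed the threshold. Other TRAV7 probes read -1.36 ± 0.65 for TRAV7D-3, -2.01 ± 0.98 for TRAV7-1 and -1.42 ± 0.74 for TRAV7D-5.

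At the other end, probes with the largest positive differences had wide errors. A variable 2.5 region probe (ENSMUST00000103589) was at 1.54 ± 1.13. The next, a 2H10 alpha chain probe (ENSMUST00000103663), was at 1.37 ± 1.23. Of 1275 pairs of alpha probes, 18 matched at 85% or more of at least 20 aligned bases, so the count of 7 low probes stands for fewer separate sequences. Among 20 tested beta variable probes 4 were higher and 16 lower (median -0.60, and -0.25 within slide 1), and 1 of them (M11858, -3.54 ± 1.64) was lower at a p under 0.05, against 1.67% of all genes, and missed the threshold within slide 1 at -2.01.

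**Figure D4:**
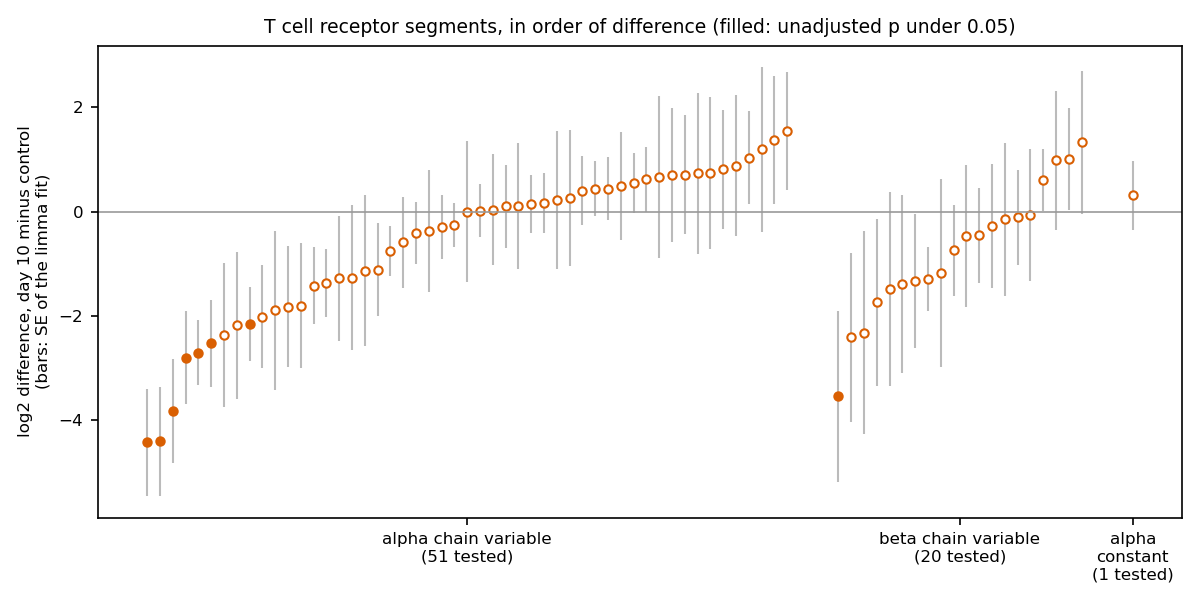
Log2 difference, day 10 minus control, of each tested T cell receptor probe, ordered within the alpha variable, beta variable and alpha constant groups. Bars are standard errors of the limma fit and filled points have an unadjusted p under 0.05. All 7 filled alpha variable points lie below 0, and the alpha constant region lies at 0.31 (-0.44 without control replicate 1).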

How the data were processed

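CD4 T cell lysates were amplified with the SuperAmp procedure and hybridised to one-colour Agilent arrays, per the labels' protocols. The scanner files deposited by the authors hold linear intensity values from Feature Extraction 10.7.3.1 (protocol GE1_107_Sep09, grid build mm9), per the file headers. The value table deposited by the authors holds log2 values with a median of 5.51 on every array. Its further processing is not given in the sources used here, and it served only as an alternative.

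Processed intensities of 55681 probes were averaged over spots, taken as log2 and set against the array's 75th percentile over non-control probes. No spot was saturated (0 on each array), 1 damaged spot line (day 30) was left out, and 46 probe values were missing. Where probes of a gene disagreed, the brightest represented it; 6429 genes had several. Symbols came from RefSeq annotation of assembly GRCm38.p6, used for names only, and 31225 probes received one. Probe positions are those of the array files.

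Means of the 3 groups over 15 arrays were fitted with limma 3.58.1 in R 4.3.3 (intensity trend, Benjamini-Hochberg adjustment, threshold 0.05), and the script was tested on simulated data. The slide came from the file headers, and slide 2 holds no control. Genes were named as follows: the 12 of smallest p in each direction among genes detected on all 10 arrays, up to 6 in each direction detected throughout one group and on at most 1 array of the other, the 2 of smallest p in each list, and 11 fixed T cell genes, 1 of which is not reported here. Other list members are given for context. The comparison, its lists and named genes were chosen with earlier results of these data known, and the receptor segments after their values were seen. Alternatives covered the arrays fitted, slide, replicate number, normalization, background correction, filters, probe choice, detected share and leaving out each array.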

Additional observations from a re-analysis of the deposited data

Results flagged for a closer look

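Of 210 groups of 5 arrays (105 named genes in control and day 10), 23 had an array far from the other 4 (11%), where chance flags about 1 in 20. Control replicate 1 was the distant array in 9 of them. It was high for Commd9 (-0.68, the others -2.80 to -2.65), Srrm3 (1.16), Cxcr1 (-0.96), Bok (-0.37) and the red cell gene Slc4a1 (-0.76). It was low for Ccr8 (-3.67, the others 0.18 to 1.64), Cdc6 (-6.39, the others -0.37 to 0.45), Il10 (0.26, the others 2.70 to 3.61) and Cd3e (-0.59, the others 1.38 to 1.77).

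Among the other controls, replicate 2 was low for Ppara (-2.35), replicate 3 high for Mvk (3.41), replicate 4 low for Pfkfb3 (-6.41) and replicate 5 high for Icam2 (-0.42). At day 10, replicate 1 was high for Ttc33 (-2.92), H2-Aa (-0.36) and the TRAV13-2 probe ENSMUST00000103658 (0.12, the others -3.43 to -2.43). Replicate 2 was low for Slc2a1 (-4.08), replicate 3 low for Gata3 (1.22) and replicate 4 high for Ddit4 (-1.01, the others -6.01 to -5.58). Replicate 5 was high for Ccl3 (-0.41), Cdc6 (1.16, the others -6.39 to -5.12) and Crtam (1.15) and low for Pex5 (-6.51).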

How the results depend on the processing

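No setting gave a gene an adjusted p under 0.05 (limma; the smallest was 0.0808 to 1 over the settings; 0 in each, with 536 to 1070 genes at an unadjusted p under 0.05 except under the filter on all 10 arrays). The 618 genes at an unadjusted p under 0.05 became 228 when genes had to be well above background on all 10 arrays, 1070 with no filter and 1059 with the detected share as a covariate. The first 2 of these change the genes tested, and the cause of the third was not tested. The split of 217 higher and 401 lower became 377 and 361 with quantile normalization, 563 and 496 with the covariate, 256 and 280 with slide as a block and 413 and 402 without control replicate 1. The 97 genes without overlap became 436 within slide 1, 35 in the deposited table, 44 under the filter on all 10 arrays and 179 to 280 with 1 array left out, which is fewer arrays or fewer genes by construction. Within slide 1 the 651 genes became 565 to 1063 with 1 array left out, the highest without control replicate 1.

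Sizes of the named differences depended on the processing. The 12 well-detected higher genes, at 1.24 to 2.32, were at 0.64 to 1.32 in the deposited table. The 12 lower ones, at -3.25 to -1.26, were at -1.83 to -0.64 there. Pex16, at 4.71, was at 2.10 with normexp background correction and 1.20 in the deposited table. M20875, at -4.40, was at -2.66 and -1.59. Signs turned for genes that were never called. Taking the mean of all probes gave 0.06 for Lcp2 and -0.69 for Stat6. The deposited table gave -0.10 for Irf7, -0.13 for Spink4 and -0.08 for Tbx21. Foxp3 ranged from -0.80 to 0.21 with 1 array left out, with its sign turned when control replicate 5 (0.11) or day 10 replicate 4 (0.21) was dropped. The causes were not tested. Granulocyte markers gave no value under the filter on all 10 arrays, since none passes it.

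Replicate numbers are shared between groups but did not pair the samples, with correlations of deviations of -0.191, 0.0424, -0.157, 0.0369 and -0.0289 for the 5 numbers. With the replicate number as a block, 654 genes had an unadjusted p under 0.05 and 0 an adjusted one (limma). The number of arrays and the signal over background limit precision: 10872 gene names were too dim to test.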

Other observations

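The day 30 arrays give another level for the low T cell receptor alpha segments. It is given as a description with no test. The probes were chosen for a large gap between control and day 10, so the mean of other arrays would tend to fall between them. All day 30 arrays lay on slide 2, which holds no control array. For 6 of the 7 alpha probes that were lower at day 10 past the unadjusted threshold, the day 30 mean lay between those of day 10 and control. The exception was the Tca probe (ENSMUST00000103668), whose means were 2.57 in control, 0.41 at day 10 and -0.28 at day 30.

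Among the 6, TRAV13-2 (ENSMUST00000103658) had a control level of 2.07 ± 1.57 (SD), a day 10 level of -2.35 ± 1.45 and a day 30 level of 0.18 ± 2.17, each over 5 arrays. TRAV13D-1 (ENSMUST00000103588) stood at 1.89 ± 1.11, -1.94 ± 1.24 and -0.08 ± 2.37 in the same order. The M20876 clone stood at 0.43 ± 1.07, -2.27 ± 0.72 and -0.19 ± 0.84.

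Alpha probes were also grouped by shared probe sequence, with 5 groups of 3 or more members beside smaller ones. The 3 related probes that include TRAV13D-1 were all lower, with a median of -3.82, and so were the 4 that include TRAV7D-4, with a median of -2.45. All 3 of the first group and 2 of the second were among the low probes named above. Probes of a group are not independent measurements, so a shared sign adds no support. None of the 4 that include the Valpha11 probes was lower (median 0.76), and none of the 3 that include Trav12-1 (median 0.88). A further group of 3 that includes AF126458 had a median of 0.67.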
